A study of Mus musculus with 148 samples.

Results

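The balance of the X-linked alleles before any doxycycline (Dox) was added was analysed in a pair of reciprocal female mouse embryonic stem cell (mESC) lines. The set holds the 14 uninduced (NoDox) libraries with an X chromosome table, out of 148 samples in the series, and was chosen by the labels alone. 12 of them are iXist-ChrX cells and 2 are C7H8 cells. The growth protocol in the labels mentions Dox for all samples, but these libraries are labelled NoDox and were treated as uninduced. The study asked how Xist silences genes after induction, using ChrRNA-seq, the sequencing of chromatin-bound RNA, in 129S x Cast hybrid cells whose single nucleotide polymorphisms (SNPs) assign reads to a parental chromosome. The uninduced libraries are the level from which silencing was measured. In iXist-ChrX the endogenous Xist promoter was replaced by a TetOn promoter on the 129S allele. In C7H8 the same replacement was made on the Cast allele. Both lines also carry the TetOn transactivator at the Tigre locus, and each is a clone obtained from 1 parental hybrid XX line, so that an effect of the allele that carries the inducible promoter and an effect of the clone cannot be told apart. Of the iXist-ChrX libraries, 4 have full-length Xist (WT), 4 come from XistΔA cells (labelled XistDelA), which lack the A-repeat, and 4 from XistΔPID cells (labelled XistDelPID), which lack the region of the B- and C-repeats. Each of these forms has 1 library from ES medium, here called undifferentiated, and 3 replicates from differentiating cultures, all titled 6 days. C7H8 has 2 replicates, from ES medium, whose labels give no number of days, so that time in culture and the line cannot be told apart. All cultures in ES medium were kept on mouse fibroblast feeders, whose share of the RNA was not measured. The tables hold X-linked genes, so the mESC identity was not checked against autosomal markers here.

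In female mammals 1 of the X chromosomes is silenced during early development. Xist, the long noncoding RNA that starts this process, coats the chromosome it is transcribed from, and its antisense partner Tsix represses it in cis in undifferentiated cells. mESCs carry a pair of active X chromosomes and have little Xist RNA, so most X-linked genes are read from both alleles. In a hybrid, sequence differences between the strains can make 1 allele of a gene the stronger, whichever chromosome was engineered.

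The guides below are shown because they place the edits that separate the lines, the inducible promoter of both reciprocal lines and the deletions of the XistΔA and XistΔPID sister lines. They were taken from the oligonucleotide list of the study and located in the mouse genome of RefSeq GRCm38.p6, the assembly of mm10. The 20 bases of the guide are in lower case and the adjacent PAM of the genome is in capitals.
Xist_TRE_gRNA1: taactgatccgcggcgctgaAGG
Xist_TRE_gRNA2: gcacgcctttaactgatccgCGG
Xist ΔA_gRNA: gatcagttaaaggcgtgcaaCGG
Xist ΔPID_gRNA: ttgaggttctataccagttcAGG
Xist is read from the minus strand at chrX:103460373-103483233. Both guides of the inducible promoter match the plus strand just upstream of the Xist start, Xist_TRE_gRNA1 at chrX:103483245-103483264 and Xist_TRE_gRNA2 at chrX:103483236-103483255. The ΔA guide matches the minus strand at chrX:103483234-103483253, next to the start, and the ΔPID guide matches it within the gene at chrX:103480607-103480626, which is 2607 to 2626 bases downstream of the start. These edits lie at 1 end of the stretch analysed, since the iXist-ChrX table stops at Xist.

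The deposited value is an allelic ratio, the share of allele-assigned reads that came from the chromosome with the inducible Xist. It is therefore the 129S fraction in iXist-ChrX and the Cast fraction in C7H8. The C7H8 ratio was subtracted from 1 so that every value below is a 129S fraction, with 0.5 for equal reads from both alleles. Below, the stronger allele is the one with the larger share of these reads. Whether reads of both strains align and are assigned equally well was not tested. The iXist-ChrX table lists 258 genes and that of C7H8 lists 464, of which 254 are in both, between 6047507 and 103484957 on the X chromosome of mm10. No read number per gene or library was deposited, so depth is unknown and no counting interval is given. The study calls its replicates biological, but the labels do not say whether they are separate cultures, so p-values measure the spread between these libraries, which may be technical.

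At the median of the shared genes, the 129S allele held slightly more of the reads in every library. The median 129S fraction was 0.514 in undifferentiated WT, 0.519 in undifferentiated XistΔA and 0.509 in undifferentiated XistΔPID. It ran from 0.508 to 0.521 in the 9 differentiating libraries and was 0.532 and 0.539 in C7H8, where the deposited medians, on the Cast allele, were 0.468 and 0.461. All 12 iXist-ChrX medians thus lay below both C7H8 medians. The undifferentiated libraries averaged 0.514 ± 0.00508 (SD, n = 3, 1 of each Xist form) and C7H8 0.536 ± 0.00529 (SD, n = 2). The difference of -0.0219 had an exact two-sided permutation p of 0.1, the smallest that 10 arrangements allow. Set against all 12 iXist-ChrX libraries it was -0.0210, with an exact two-sided permutation p of 0.011, again the smallest possible, but those libraries also differ from C7H8 in culture and Xist form. Between 56.3% and 64.2% of genes were above 0.5 in an iXist-ChrX library, and 68.9% and 71.7% in the C7H8 libraries. In these bulk libraries a shift in every cell and a larger shift in some of the cells cannot be told apart.

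**Figure D1:**
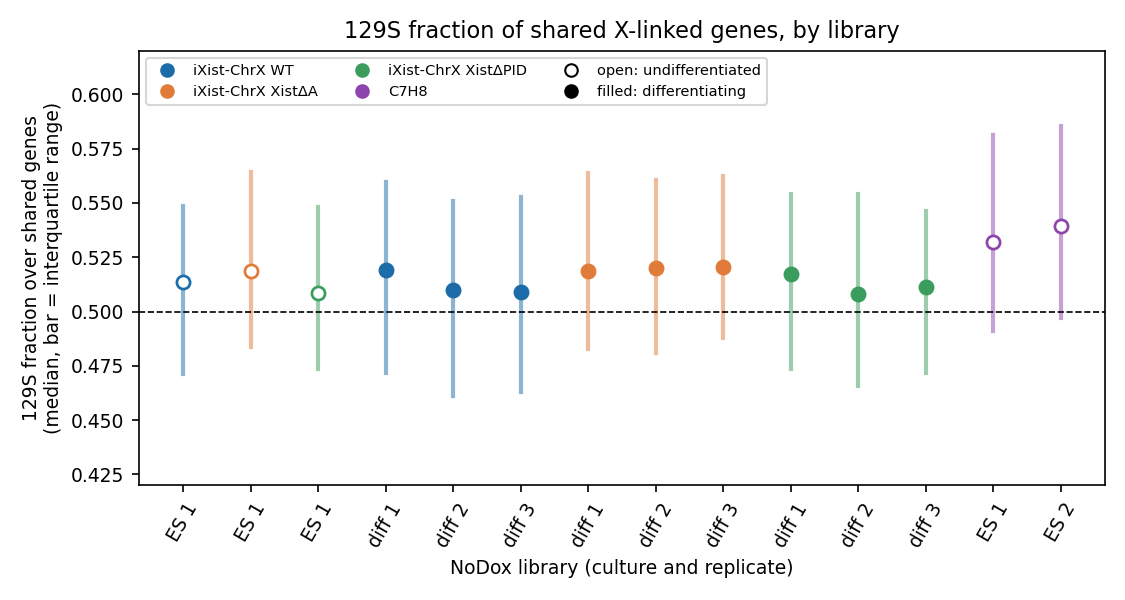
Median (point) and interquartile range (bar) of the 129S fraction over the 254 shared genes in each of the 14 NoDox libraries, open points for ES medium (marked ES on the axis) and filled points for differentiating cultures. All medians are above 0.5, and both C7H8 medians, 0.532 and 0.539, are above the 12 iXist-ChrX medians.

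In ES medium, single genes differed more between the reciprocal lines than between libraries within a line. The median absolute difference per gene was 0.0221 between the C7H8 replicates and 0.0201 to 0.0213 between undifferentiated iXist-ChrX libraries of different Xist forms. It was 0.0314 to 0.0390 between an undifferentiated iXist-ChrX library and a C7H8 library. Between differentiating replicates of 1 form it was 0.0190 to 0.0374, with a median of 0.0275 over the pairs, which overlapped each of these ranges. The differences between the lines in ES medium include the common shift described above. Their median signed difference was -0.0296 to -0.0137, against -0.00752 to 0.00797 between undifferentiated iXist-ChrX libraries. No value with the shift removed is given. The ratios were calculated within libraries and deposited as separate tables for the lines, so the table and the line cannot be told apart. Replicate 2 of differentiating XistΔPID stood apart from the other iXist-ChrX libraries, with a median Pearson correlation across genes of 0.727 with them, against 0.800 to 0.866 for the other 11. The XistΔPID comparisons are also given without it.

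For each gene the mean of both lines was split into a pair of terms, using the ES medium libraries that both lines share. The strain term is the mean 129S fraction of both lines (the average of iXist-ChrX and C7H8) minus 0.5. It is positive where the average of the lines is above 0.5, which does not require each line to be above it. The allele term is the iXist-ChrX fraction minus the C7H8 fraction, divided by 2. Once the strain term is taken off, it is positive where the allele with the inducible promoter has the higher share in both lines, and negative where that allele has the lower share. Each term was tested with limma on all 14 libraries, with Benjamini-Hochberg adjustment over the 254 genes, and a gene is called at an adjusted p under 0.05.

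The strain term held more of the spread between genes than the allele term did. The strain term had a median of 0.0250 and a standard deviation over genes of 0.0961 without Xist, and the allele term a median of -0.00942 and a standard deviation of 0.0296. Of the summed squares of both terms, 90.1% belonged to the strain term when Xist was left out. Across the 253 genes other than Xist, the mean fractions of the lines had a Pearson correlation of 0.832, given as a description since the genes share their libraries. The strain term was called higher for 115 genes (45.3%) and lower for 39 (15.4%). The allele term was called higher for 3 genes (1.18%) and lower for 28 (11%). Both were called for 27 genes, the strain term alone for 127, the allele term alone for 4 and neither for 96. With each library's median set to 0.5, which lowers every strain term by the same amount and balances the genes around 0.5 by construction, 68 genes were called higher and 67 lower.

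**Figure D2:**
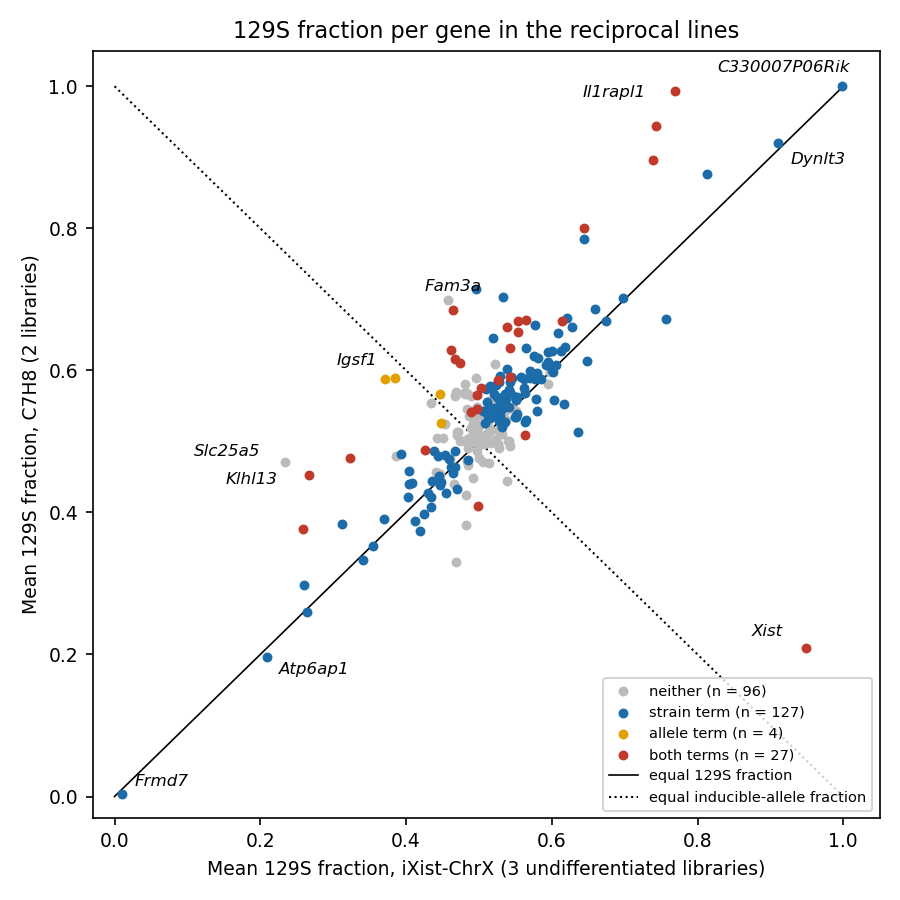
Mean 129S fraction of each of the 254 shared genes in undifferentiated iXist-ChrX (3 libraries, horizontal axis) and C7H8 (2 libraries, vertical axis), coloured by which terms limma called. Most genes lie along the solid line of equal 129S fraction, and Xist lies far below it at 0.948 in iXist-ChrX and 0.209 in C7H8.

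Xist reads came mostly from the allele with the inducible promoter in both lines, 129S in iXist-ChrX and Cast in C7H8. Its 129S fraction was 0.981 in undifferentiated WT and 0.994, 0.986 and 0.983 in differentiating WT. In XistΔPID it was 0.994 in the undifferentiated library and 0.995, 0.994 and 0.994 in the differentiating ones. In XistΔA it was 0.870 in the undifferentiated library and 0.945, 0.738 and 0.95 in the differentiating ones. The WT and XistΔPID values were thus all close to 1, and the 4 XistΔA values were below each of them. C7H8 gave 0.208 and 0.210, so the Cast allele, which carries the inducible promoter there, held most of the Xist reads. No iXist-ChrX library overlapped C7H8. The allele term of 0.370 ± 0.0267 (SE) had a limma adjusted p of 6.92e-05 and passed under each of 18 alternatives (adjusted p 1.45e-05 to 0.00216). The mean share of reads from the inducible allele was 0.948 in undifferentiated iXist-ChrX and 0.791 in C7H8, so the strain term was also above 0, at 0.0785 ± 0.0267 (limma adjusted p = 0.0302), and passed under 13 of 18 alternatives. In differentiating cells XistΔA minus WT was -0.110 ± 0.0478 (SE), with a limma adjusted p of 0.808. The table lists Xist at an RPKM of 18.2, in a column that names no library, so the amount of RNA behind the ratios was not compared between libraries.

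Tsix, the antisense repressor of Xist at chrX:103431517-103484957, did not show this pattern. Its 129S fraction was 0.523, 0.566 and 0.540 in undifferentiated WT, XistΔA and XistΔPID, and 0.587 and 0.581 in C7H8. The C7H8 values were above the others without a called allele term (-0.0204 ± 0.0109 SE, limma adjusted p = 0.283). The strain term was called at 0.0636 ± 0.0109 (SE, adjusted p = 8.84e-04). Counting was specific to the strand, which keeps Xist and Tsix reads apart.

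Of the genes with a called strain term, 43 had a term of at least 0.1 in size, 31 with the 129S allele the stronger and 12 with the Cast allele the stronger. At either end of the scale, nearly all assigned reads came from 1 allele in both lines. Frmd7, a FERM domain gene linked to inherited nystagmus (chrX:50892645-50942710), was read almost wholly from Cast. Its 129S fraction ranged from 0 to 0.0250 over the 12 iXist-ChrX libraries, with a median of 0.0125, and was 0 and 0.00641 in C7H8. C330007P06Rik (chrX:36848544-36864246) was read from 129S, with fractions from 0.998 to 1 in iXist-ChrX and 1 in both C7H8 libraries. The strain terms were -0.493 ± 0.00562 and 0.499 ± 0.00442 (SE), with limma adjusted p-values of 3.39e-12 and 7.15e-13. The allele terms were 0.00376 and -0.000574, with adjusted p-values of 0.717 and 0.964.

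The Cast allele was also the stronger for Atp6ap1, an accessory subunit of the vacuolar proton pump (chrX:74297097-74304721). Its 129S fraction was 0.187 to 0.279 in iXist-ChrX, with a median of 0.212, and 0.183 and 0.210 in C7H8. The lines overlapped, and the strain term was -0.297 ± 0.0118 (SE, limma adjusted p = 6.6e-08). Nap1l2, an intronless nucleosome assembly gene of neurons close to Xist (chrX:103184059-103186664), had 0.153 to 0.391 with a median of 0.313 in iXist-ChrX, and 0.232 and 0.287 in C7H8. Its spread between libraries was wider, with a strain term of -0.238 ± 0.0260 (adjusted p = 5.36e-05). Lancl3, a LanC-like gene, had a strain term of -0.221 ± 0.0159, Mtap7d3, a microtubule-associated protein gene, one of -0.182 ± 0.0159, and Stard8, a gene with a lipid-binding START domain, one of -0.163 ± 0.0127. All 14 libraries were below 0.5 for each of these 5 genes, as for 25 genes (9.84%) in all. Mtap7d3 differed from the others in that C7H8, at 0.380 and 0.375, was above the highest of the 12 iXist-ChrX values, 0.323, and its allele term was called too (-0.0593, adjusted p = 0.0447).

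On the other side, Dynlt3, a dynein light chain gene (chrX:9654270-9662983), had 129S fractions of 0.835 to 0.931 with a median of 0.866 in iXist-ChrX and 0.923 and 0.918 in C7H8. Its strain term was 0.415 ± 0.00913 (SE, limma adjusted p = 7.36e-10). Efhc2, an EF-hand gene of motile cilia (chrX:17132049-17319368), had 0.75 to 0.921 in iXist-ChrX and 0.866 and 0.888 in C7H8, with a strain term of 0.345 ± 0.0217 (adjusted p = 1.52e-06). For both genes the values of the lines overlapped. The ratio of 129S to Cast reads of Dynlt3 was 10.1 in undifferentiated iXist-ChrX and 11.6 in C7H8. The other strong 129S terms, of Il1rapl1 (0.381), an unnamed interval described below (0.344) and Mageb16 (0.318), came with called allele terms. All 14 libraries were above 0.5 for these genes, as for 65 genes (25.6%) in all.

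The differentiating libraries, which the strain contrast did not use, were read as a check. All 9 were above 0.5 for 76 of the 115 genes called higher, against 83 of all 254 genes (32.7%). All 9 were below 0.5 for 27 of the 39 genes called lower, against 34 of all genes (13.4%). They are further libraries of iXist-ChrX and not of C7H8, and the fit used them to estimate the spread.

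**Figure D3:**
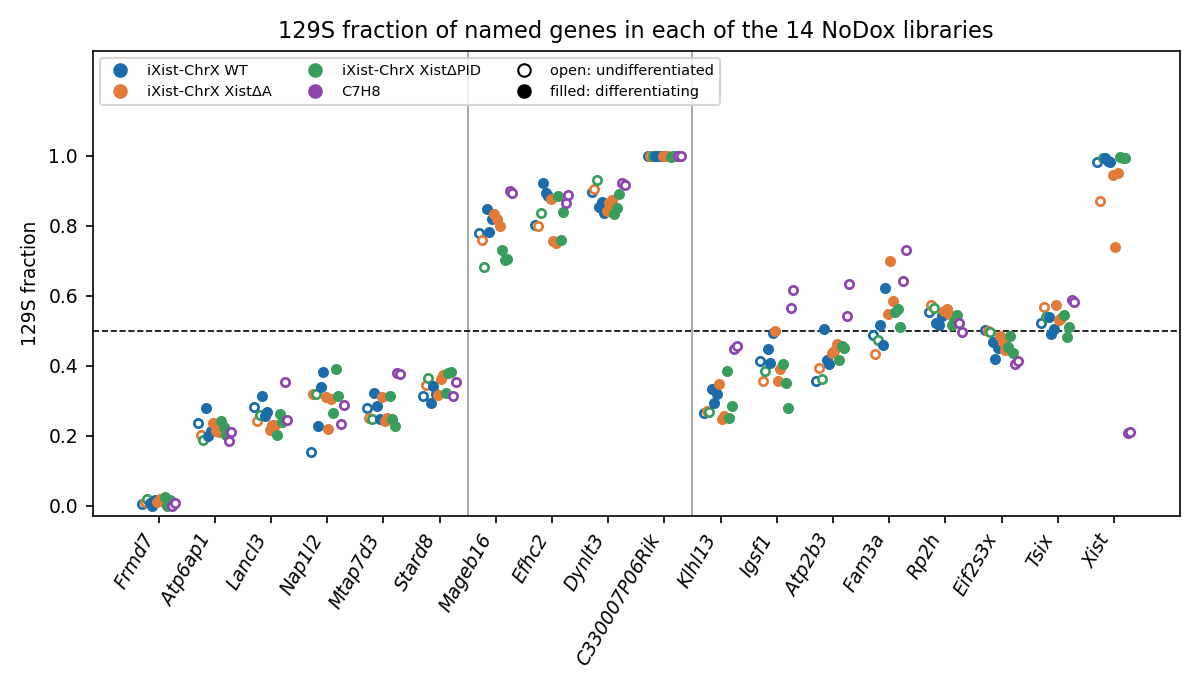
129S fraction (vertical axis) of 18 genes in each of the 14 NoDox libraries, coloured by line and Xist form, with open points for ES medium and filled points for differentiating cultures. From Frmd7 to C330007P06Rik the lines lie on the same side of 0.5, with C7H8 above every iXist-ChrX value for Mtap7d3 and Mageb16. Klhl13, Igsf1 and Atp2b3 are higher in C7H8, and Xist is near 1 in WT and XistΔPID against 0.208 and 0.210 in C7H8.

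The allele term was mostly negative, with the 129S fraction higher in C7H8 than in iXist-ChrX. The 3 undifferentiated iXist-ChrX libraries and both C7H8 libraries did not overlap for 124 genes (48.8%), 99 of them with iXist-ChrX the lower and 25 with iXist-ChrX the higher. With each library's median set to 0.5, which raises every allele term by the same amount, the genes called lower fell from 28 to 14, and without either C7H8 replicate 9 were called. The differentiating libraries lay on the same side: all 9 were below both C7H8 values for 27 of the 28 genes called lower, against 65 of all genes (25.6%), though the C7H8 values are those used for the calls. The mean deposited ratio was below 0.5 in both lines for 55 genes and above 0.5 in both for 10.

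Klhl13, an adaptor of a Cullin 3 ubiquitin ligase (chrX:23219271-23285428), was among the highly expressed genes with a called negative allele term, at an RPKM of 165.5. Its 129S fraction was 0.263, 0.270 and 0.268 in undifferentiated WT, XistΔA and XistΔPID, and 0.448 and 0.456 in C7H8. In the 9 differentiating libraries it was 0.248 to 0.385, with a median of 0.293, so that no iXist-ChrX value reached those of C7H8. Cast held more of the reads in both lines, so the inducible allele was the lower one in iXist-ChrX only. The allele term was -0.0924 ± 0.0204 (SE, limma adjusted p = 0.0212), and the strain term of -0.140 was called as well (adjusted p = 3.19e-04). Without C7H8 replicate 1 or replicate 2 the allele term did not pass, with adjusted p-values up to 0.115.

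Atp2b3, a plasma membrane calcium pump (chrX:73503086-73573270), lay on opposite sides of 0.5. Its 129S fraction was 0.357, 0.393 and 0.362 in undifferentiated WT, XistΔA and XistΔPID and 0.542 and 0.633 in C7H8. All 12 iXist-ChrX values, up to 0.505, were below C7H8. The allele term of -0.108 ± 0.0170 (SE, limma adjusted p = 0.00464) passed under each of 17 alternatives, although the listed RPKM was only 0.580. Igsf1, an immunoglobulin superfamily membrane protein gene (chrX:49782537-49788243), had 0.413, 0.356 and 0.386 against 0.564 and 0.615, and an allele term of -0.102 ± 0.0244 (adjusted p = 0.0289). Fam3a, of the FAM3 family of cytokine-like secreted proteins (chrX:74384720-74393139), had 0.488, 0.433 and 0.474 against 0.641 and 0.729. Its differentiating libraries reached 0.699 and overlapped C7H8. Its allele term was -0.110 ± 0.0276 (adjusted p = 0.0341) and passed under 7 of 17 alternatives, against 11 of 17 for Igsf1. Opposite sides of 0.5 in all 5 undifferentiated libraries were seen for 19 genes in all, 8 of them with a called allele term.

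The allele term was called positive for only 2 genes besides Xist. In neither was the inducible allele the higher in every undifferentiated library of both lines. Eif2s3x, the X-linked gamma subunit of translation initiation factor eIF2 and an escape gene (chrX:94188709-94212651), had a 129S fraction of 0.501, 0.498 and 0.495 in undifferentiated iXist-ChrX and 0.405 and 0.414 in C7H8. Its allele term was 0.0443 ± 0.00976 (SE, limma adjusted p = 0.0212). The differentiating libraries were lower, at 0.419 to 0.484, and the term passed under 12 of 18 alternatives. It was lost with these libraries in place of the undifferentiated ones, with the 4 WT libraries, and without C7H8 replicate 1 or replicate 2. Rp2h, the mouse gene of the RP2 retinal degeneration protein (chrX:20364481-20400858), had 0.552, 0.573 and 0.566 against 0.521 and 0.496, with an allele term of 0.0274 ± 0.00672 (adjusted p = 0.0316) that passed under 8 of 18 alternatives.

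Gene groups with shared roles were read for the same terms, by counts beside those of all genes. Of 12 listed genes of the X inactivation centre 4 were in both tables, Xist, Tsix, Chic1 and Nap1l2. The strain term was called higher for the first 3 and lower for Nap1l2, beside 45.3% and 15.4% of all genes, and the allele term higher for Xist, beside 1.18%. Chic1 had a strain term of 0.0489 (limma adjusted p = 5.36e-05). Of 11 listed genes known to escape X inactivation in mouse, 6 were measured, and their median strain term was 0.0315 beside 0.0250 over all genes. The strain term was called higher for Kdm6a, a histone H3K27 demethylase (0.0458), Ddx3x, an RNA helicase (0.0171), Utp14a, a ribosome biogenesis factor (0.172), and Shroom4, a cytoskeletal regulator (0.0682). It was called lower for Eif2s3x (-0.0461). The count of 4 higher and 1 lower of 6 stands beside 45.3% and 15.4% of all genes. Ddx3x, whose term is smaller than the common shift, is at -0.00753 with each library's median set to 0.5.

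Among 15 measured chromatin regulators of 24 listed, the strain term was called higher for 5 and lower for 2, beside 45.3% and 15.4% of all genes, with a median of 0.0107. The allele term was called for 0 of the 15, beside 1.18% higher and 11% lower of all genes. Hdac8, a histone deacetylase, had 0.0751 (limma adjusted p = 1.8e-06) and Hdac6, a mainly cytoplasmic deacetylase, -0.0487 (adjusted p = 0.0107). Ogt, the O-GlcNAc transferase, had 0.00500 (adjusted p = 0.545), and Phf6, a PHD finger gene, -0.0104 (adjusted p = 0.274). Of 11 listed pluripotency and MAPK genes 6 were measured, with 2 called higher, 3 lower and a median of -0.000801, beside 45.3% higher, 15.4% lower and 0.0250 over all genes. Tfe3, a transcription factor of the pluripotency network, had a strain term of 0.0556. Nr0b1, a nuclear receptor of the same network, had -0.0573 and passed under 14 of 18 alternatives, and Elk1, a MAPK target, had -0.0230 and passed under 11 of 18. Klhl13 had -0.140, and its allele term was the 1 of 6 called lower, beside 11% of all genes. Of 18 listed housekeeping genes 10 were measured, and the strain term was called higher for 5 and lower for 0, beside 45.3% and 15.4% of all genes. Hprt, the purine salvage enzyme, had 0.559 to 0.594 in iXist-ChrX and 0.573 and 0.605 in C7H8, with a strain term of 0.0791 (adjusted p = 1.58e-05). Rpl10, a ribosomal protein gene, had 0.561 to 0.722 and 0.633 in both C7H8 libraries (strain term 0.125), and the ribosomal protein gene Rps4x -0.00308 (adjusted p = 0.863). Rpl10 and Rps4x have processed copies elsewhere in the genome, which makes their ratios less certain.

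Among 18 predicted gene models and RIKEN clones, the strain term was called higher for 10 and lower for 2, beside 45.3% and 15.4% of all genes, and the allele term lower for 3, beside 11%. The median strain term was 0.0441. Gm6938, Gm8787 and Gm14827 had strain terms of 0.200, 0.118 and 0.0847. Gm10474, at 0.400 to 0.725 in iXist-ChrX and 0.455 and 0.767 in C7H8, was not called (limma adjusted p = 0.0801), and neither was Gm14634 (0.00306, adjusted p = 0.927). Of the multi-copy families, Mageb16 and Maged1, members of the melanoma antigen family, had strain terms of 0.318 and 0.0518. Reads can be shared between near-identical copies of these families.

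The sister lines of iXist-ChrX were compared to see how far subclones of 1 line differ without induction. XistΔA minus WT in differentiating cells gave 0 called genes by limma (0%), with 15 genes at an unadjusted p under 0.05 (13 higher and 2 lower). XistΔPID minus WT gave 4 called genes (1.57%), and XistΔPID minus XistΔA gave 4 (1.57%). Both of these comparisons use the same XistΔPID libraries. The genes were the same in both: F8, Mageb16, Il1rapl1 and an unnamed interval, all lower in XistΔPID.

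F8, the gene of coagulation factor VIII (chrX:75172715-75380041), had a 129S fraction of 0.671, 0.671 and 0.742 in differentiating WT, 0.752, 0.704 and 0.714 in XistΔA, and 0.515, 0.526 and 0.546 in XistΔPID. The XistΔPID values lay below all the others without overlap. The difference was -0.165 ± 0.0220 (SE, limma adjusted p = 0.00996) from WT and -0.194 ± 0.0220 (adjusted p = 0.00281) from XistΔA. Il1rapl1, a synaptic adhesion gene of the interleukin-1 receptor family (chrX:86747242-88115623), had 0.973, 0.910 and 0.928 in WT, 0.99, 0.918 and 0.906 in XistΔA, and 0.821, 0.773 and 0.706 in XistΔPID. The differences were -0.171 and -0.172 ± 0.0322 (adjusted p = 0.0334 and 0.0384). Mageb16 (chrX:79623231-79671435) had 0.847, 0.783 and 0.819 in WT, 0.832, 0.818 and 0.800 in XistΔA, and 0.729, 0.703 and 0.704 in XistΔPID. Its differences were -0.104 and -0.105 ± 0.0171 (adjusted p = 0.0163 and 0.0238). The interval spans chrX:77164403-77475936 and is listed under a microRNA symbol that RefSeq places on another chromosome, so its values are given for the interval and for no microRNA. It had 0.775, 0.807 and 0.875 in WT, 0.784, 0.795 and 0.755 in XistΔA, and 0.595, 0.679 and 0.591 in XistΔPID, with differences of -0.197 and -0.157 ± 0.0302 (adjusted p = 0.0145 and 0.0384).

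The undifferentiated XistΔPID library, which was not part of this contrast, was lower in all 4 as well. Against the mean of undifferentiated WT and XistΔA it differed by -0.144 for F8, -0.231 for Il1rapl1, -0.0862 for Mageb16 and -0.186 for the interval. All 4 lie between 75.17 and 88.12 Mb, on the minus strand, and are listed at an RPKM of 0 to 3.86. The other 16 shared genes of that window had XistΔPID minus WT differences from -0.0587 to 0.0491, a median of -0.00145 and a median RPKM of 19.0. Their lowest adjusted p was 0.646. All 4 genes also had called allele terms, with C7H8 above every iXist-ChrX library, F8 at 0.815 and 0.786 and Il1rapl1 at 0.993 and 0.994. The allele term of Il1rapl1 was -0.112 ± 0.0180 (limma adjusted p = 0.00464), but the XistΔPID library is 1 of the 3 that stand for iXist-ChrX in it. Without that library it did not pass, and the genes called lower in all fell from 28 to 16. The calls varied with the processing. Those from WT and from XistΔA passed under 8 and 9 of 11 alternatives for F8, 7 and 4 of 11 for the interval and 4 of 10 in either comparison for Il1rapl1, which did not pass on the logit scale (limma adjusted p = 0.452 and 0.277). Without replicate 1, 2 or 3 of all forms, which leaves 4 residual degrees of freedom, 0 to 1 genes were called in either comparison. The differences of F8 and Il1rapl1 kept about their size, and that of the interval from WT ran from -0.232 to -0.154. For Mageb16 these values are not given. The F8 difference was -0.170, -0.176 and -0.151 from WT, and -0.173, -0.202 and -0.208 from XistΔA. From XistΔA it passed without replicate 3 (limma adjusted p = 0.0194). Without the XistΔPID library that stood apart, F8 and the interval were called in each comparison, and Il1rapl1 and Mageb16 were not. The Il1rapl1 differences were then -0.174 from WT and -0.175 from XistΔA, about as large as with that library. With the 85 genes of lowest RPKM left out, which removes all 4, 0 genes were called.

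**Figure D4:**
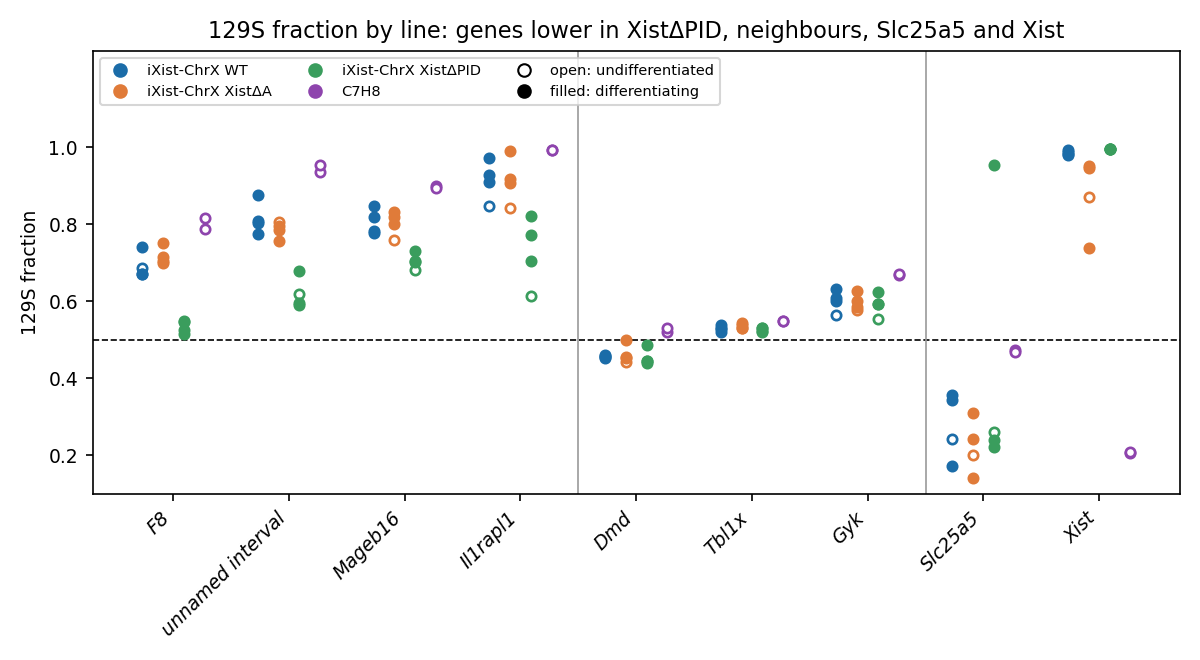
129S fraction (vertical axis) by line and Xist form for the 4 genes called lower in XistΔPID, for Dmd, Tbl1x and Gyk as neighbours, for Slc25a5 and for Xist, with open points for ES medium and filled points for differentiating cultures. The 4 XistΔPID values of F8, 0.515 to 0.549, lie below the 8 values of WT and XistΔA, 0.671 to 0.752.

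Culture made no called difference. Differentiating minus undifferentiated iXist-ChrX gave 0 called genes by limma (0%), with 34 at an unadjusted p under 0.05 (18 higher and 16 lower) and a smallest adjusted p of 0.215. With the 9 differentiating libraries standing for iXist-ChrX, 44 allele terms were called lower and 2 higher.

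Expression level and position were described without a test. In 3 groups of equal size by the listed RPKM, from lowest to highest, the median size of the strain term was 0.0501, 0.0426 and 0.0417, and that of the allele term 0.0191, 0.0156 and 0.0112. The spread between the 9 differentiating libraries fell alongside, with a median SD of 0.0453, 0.0260 and 0.0212. Allele terms were called lower for 13 of 85, 9 of 84 and 6 of 85 genes in these groups, beside 11% of all genes. Along the chromosome the median strain term of bins of 10 Mb was 0.0108 to 0.0627, and the median allele term was negative in every bin, from -0.0351 to -0.00286. Protein-coding genes, 237 of the shared set, had 106 strain terms called higher and 38 lower, and the 13 long noncoding RNA genes 7 and 1, beside 45.3% and 15.4% of all genes.

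Beyond Xist only the C7H8 cells give allelic values, since the iXist-ChrX cells have informative SNPs up to Xist alone. The 286 C7H8 genes up to that point had median 129S fractions of 0.536 and 0.539 in the 2 libraries, and the 178 genes beyond it 0.544 and 0.547. Both libraries were above 0.5 for 60.8% of the first and 68.0% of the second group, and below it for 19.9% and 18.0%. Next to Xist, the noncoding RNA gene Ftx had 0.603 and 0.614 and Jpx 0.450 and 0.577. Without a reciprocal line, strain and engineered allele cannot be told apart for these genes.

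**Figure D5:**
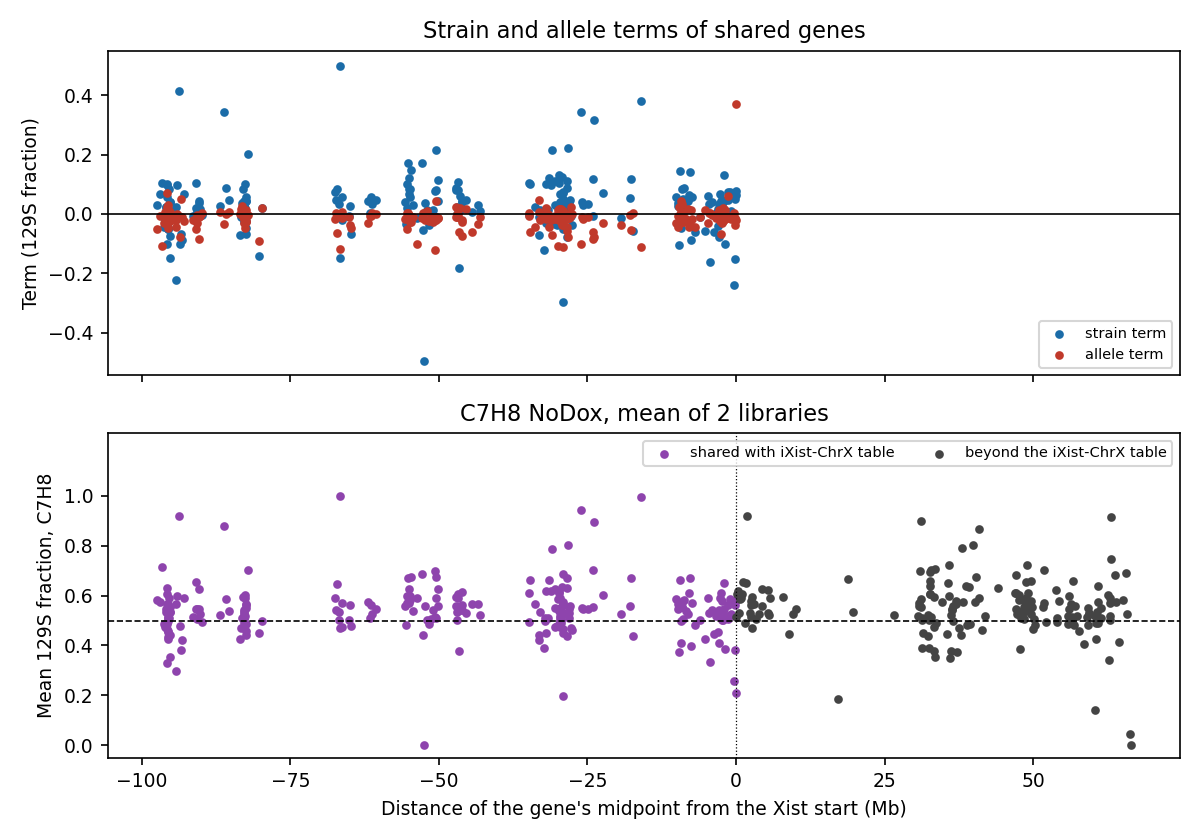
Strain and allele terms (129S fraction) of the 254 shared genes (top) and mean 129S fraction of the 464 genes in C7H8 (2 libraries, bottom) by distance of the gene's midpoint from the Xist start in Mb. Strain terms spread from -0.493 to 0.499 along the whole stretch, allele terms stay nearer to 0 apart from Xist at 0.370, and C7H8 genes lie mostly above 0.5 on either side of Xist.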

How the data were processed

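ChrRNA-seq reads were processed by the study's authors, who removed rRNA reads with Bowtie2 2.3.2, aligned the rest with STAR 2.4.2a to an mm10 genome with strain SNPs masked, assigned them to alleles with SNPsplit and counted them per gene by strand with featureCounts. They listed a gene where 10 or more reads covered its SNPs. The deposited values are allelic ratios as a fraction from 0 to 1, 1 column per library, beside an RPKM column deposited by the authors that names no library and that was used here only to group genes by expression. Genes that overlap on 1 strand can share reads. The tables have 0 missing values, and no pair of libraries was identical.

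C7H8 ratios were subtracted from 1, and 129S fractions were fitted with limma 3.58.1 (R 4.3.3; lmFit and eBayes, 1 coefficient per line, Xist form and culture, 7 residual degrees of freedom, Benjamini-Hochberg over 254 genes, adjusted p threshold 0.05). Library medians were compared by exact permutation tests in Python 3.11.15. The fit was tested on simulated data. RefSeq matched 242 genes by symbol and 10 by synonym at the same locus. The named genes were Xist and Tsix, the 6 largest strain and allele terms in each direction and the 3 largest line differences among called genes whose libraries lay on 1 side of 0.5 or did not overlap, genes under 0.05 or over 0.95 in both lines, and up to 5 members of each list, of which 1 is not reported here. Mageb16 in the XistΔPID comparison, Dmd, Tbl1x, Gyk and Slc25a5 were added after their values were seen, as were Ftx and Jpx. Members and lists were chosen with earlier results of these data known. Alternatives were the logit scale, median centring, filters on RPKM and on extreme fractions, trended or robust eBayes, other libraries for iXist-ChrX, left-out libraries and a replicate block.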

Additional observations from a re-analysis of the deposited data

Results flagged for a closer look

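In 4 of the named genes the 129S and Cast alleles stood in opposite order in the reciprocal lines in all 5 undifferentiated libraries, with the difference called by limma. The allele term was 0.370 for Xist, with the inducible allele the higher in both lines. It was -0.110 for Fam3a, -0.108 for Atp2b3 and -0.102 for Igsf1, with the inducible allele the lower. The term passed under each of 18 alternatives for Xist and 17 for Atp2b3, but under 7 of 17 for Fam3a and 11 of 17 for Igsf1, both of which were lost without either C7H8 replicate and with each library's median set to 0.5. Atp2b3, Fam3a and Igsf1 are listed at an RPKM of 0.580, 5.24 and 7.78, beside a median of 17.6 over the shared genes.

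Without induction, the sister lines of iXist-ChrX differed in the 3 entries named for their line differences. Limma called each in both comparisons that use the XistΔPID libraries, and Mageb16, named by another rule, as well. XistΔPID minus WT was -0.197 for the unnamed interval, -0.171 for Il1rapl1 and -0.165 for F8. XistΔPID minus XistΔA was -0.194 for F8, -0.172 for Il1rapl1 and -0.157 for the interval. Il1rapl1 passed under 4 of 10 alternatives in each comparison, and the interval under 7 of 11 from WT and 4 of 11 from XistΔA. The interval and Il1rapl1 are listed at an RPKM of 0, and the part of low expression in these differences was not tested.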

How the results depend on the processing

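Of 82 results for named genes 51 were called, and 29 of these were called under all alternatives run. With each library's median set to 0.5, 68 strain terms were called higher and 67 lower (115 and 39 as deposited) and 14 allele terms lower (28), and the strain terms of Ddx3x and Ogt turned to -0.00753 and -0.0197. With the 85 genes of lowest RPKM left out, 15 allele terms were called lower, and 0 genes in either XistΔPID comparison. On the logit scale XistΔPID minus XistΔA gave 2 genes instead of 4. With the 9 differentiating libraries for iXist-ChrX 44 allele terms were called lower, with all 12 libraries 49, and with the 4 WT libraries 1 was called higher instead of 3. Left-out libraries gave 9 to 28 allele terms called lower and 1 to 3 called higher, the 9 without C7H8 replicate 1 and again without replicate 2, when the remaining library was taken to vary like the other groups. They gave 0 to 2 genes in either XistΔPID comparison. Leaving out the XistΔPID library that stood apart was chosen after seeing the data. Strain calls of at least 0.05 and 0.2 in size numbered 100 and 14, against 43 at 0.1. The difference in library medians was -0.0210 with all 12 and -0.0207 with the 9 differentiating libraries (exact permutation p 0.011 and 0.0182), and -0.0257 to -0.0182 without single libraries.

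Replicate numbers were tried as a block, although the labels do not say what a number marks and not every pair passed 0.1. The correlation of deviations was 0.0036 to 0.442 in the 9 pairs with the same number, above 0.1 in 7, and -0.349 to 0.229 in 18 other pairs, and 7 of the 9 libraries correlated best with their own number. The undifferentiated iXist-ChrX libraries carry no number, so the block was fitted on the 9 differentiating and 2 C7H8 libraries. It gave 122 strain terms higher and 38 lower, and 4 allele terms higher and 39 lower, beside 120, 36, 2 and 44 without the block on the same libraries, a comparison added after seeing the data. Between the sister lines the block gave 0, 4 and 6 genes (XistΔA minus WT, XistΔPID minus WT, XistΔPID minus XistΔA), beside 0, 3 and 3 without it, and 3 of the 4 reported genes were among those called with the block in either XistΔPID comparison. The interval did not pass with the block (limma adjusted p 0.0532 from WT and 0.118 from XistΔA). Il1rapl1 passed with it (0.0206 and 0.0173) and not in the same libraries without it (0.0658 and 0.0640), and F8 passed in both. No read numbers were given, so the precision of single ratios is unknown.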

Other observations

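The following genes were chosen after their values were seen. Slc25a5, a mitochondrial ADP/ATP carrier with near-identical copies elsewhere in the genome (chrX:36795652-36798806), had a 129S fraction of 0.953 in replicate 2 of differentiating XistΔPID and 0.141 to 0.358 in the other 11 iXist-ChrX libraries, with a median of 0.242. C7H8 gave 0.474 and 0.469, above those 11 and below the first. Its allele term was not called (limma adjusted p = 0.476) in the fit of all 14 libraries, whose spread includes that replicate. The SD was 0.356 over the 4 XistΔPID libraries, against 0.0882 in WT and 0.0710 in XistΔA. No fit without that replicate is given for Slc25a5, so the missing call does not show that the lines are alike. Firre, a long noncoding RNA gene with a role in nuclear organisation, had 0.630 to 0.670 over the 12 iXist-ChrX libraries and 0.689 and 0.684 in C7H8 (strain term 0.173, adjusted p = 6.88e-09). Fmr1nb, an Fmr1 neighbour gene expressed in testis, combined a strain term of 0.100 with an allele term of -0.0610 (adjusted p = 1.51e-04). Its 12 iXist-ChrX values, 0.524 to 0.555, lay below 0.671 and 0.652 in C7H8. Sytl5, a Rab-binding synaptotagmin-like gene, had the opposite strain term, -0.10, with 0.276 to 0.402 in iXist-ChrX and 0.496 and 0.456 in C7H8.

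In C7H8 alone, beyond Xist, the lowest 129S fractions were at the far end of the chromosome. G530011O06Rik had 0 in both libraries, Mid1, a ubiquitin ligase gene at the pseudoautosomal boundary, 0.0489 and 0.0452, and Ap1s2, a clathrin adaptor subunit gene, 0.137 and 0.150. The highest were 0.882 and 0.952 for 5330434G04Rik, 0.928 and 0.901 for Egfl6, an extracellular matrix protein gene, and 0.909 and 0.889 for Hnrnph2, an RNA-binding protein gene. No iXist-ChrX value exists for these genes.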
